A study of Mus musculus with 28 samples.

Results

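Potassium channel genes were taken from the deposited table by symbol, as every gene whose symbol began with Kcn, followed by lower-case letters and a number. This gave 58 of 17295 genes in 20 subfamilies. By the role given to each subfamily they were 20 pore subunits of voltage-gated (Kv) channels, 5 Kv modifier subunits, 5 inward rectifiers, 8 tandem-pore leak channels and 12 auxiliary subunits. The other 8 were pore subunits of the Kcnma, Kcnn, Kcnt and Kcnu subfamilies, grouped here as calcium- or sodium-activated. Fold changes were tested for the 50 members with a mean normalised value of at least 10 over the libraries. The other 8, among them Kcnh1, Kcnh4, Kcnk13, Kcnk3, Kcnk6, Kcnn4 and Kcns2, stood below that mean and were not tested.

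The libraries were 28, in 14 groups of 2, all of mouse cells. Induced neural stem cells (miNSC) were lines grown from colonies picked after fibroblasts had received the doxycycline transactivator M2rtTA and doxycycline-driven factors by lentivirus. The factor letters B, K and M are those of the labels, F is the engineered eSox17FNV, and 4F stands for B, K, M and F together. Embryonic fibroblasts of the ICR line gave BKF and KF miNSC, and embryonic fibroblasts of the Sox2-GFP line gave BKF, KF and KMF miNSC. Tail-tip fibroblasts of Sox2-GFP mice aged 1.0 years gave BKF, KMF and 4F miNSC, the last sampled at passages 8 and 18, and ear fibroblasts of that age gave 4F miNSC. The cells without factors were tail-tip fibroblasts at 1.0 and 2.5 years, skin fibroblasts at 2.5 years and neural stem cells (NSC) at 2.5 years, all Sox2-GFP, with 1 NSC library each at passages 2 and 5. No source used here says whether the 2 libraries of a group were separate cultures, lines or animals, so p-values measure the spread between these libraries, which may be technical. The values were whole-number normalised expression scores of unknown depth, with totals of 15563679 to 15571626 per library. Markers of the labelled cells were present as named: the summed value of 8 fibroblast genes was 214285 to 227042 in fibroblasts, 514 to 4582 in miNSC and 281 to 1685 in NSC, and that of 9 neural stem genes was 223 to 343, 42283 to 112586 and 43665 to 110194.

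Potassium channels let potassium leave or enter the cell along its gradient and so set the resting membrane potential and shape electrical signals. Kv channels open on depolarisation, and inward rectifiers and tandem-pore channels carry current near rest. Most channels grouped here as calcium- or sodium-activated respond to those ions inside the cell. In the brain, Kv channels are best known from neurons, while the inward rectifier Kcnj10 is the main potassium conductance of astrocytes and is also found in other glia and in neural stem cells.

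Against fibroblasts, most potassium channel genes stood higher in miNSC. Of the 50 tested members 32 were higher and 11 lower, where 42.8% of all 16275 tested genes were called higher and 33.7% lower (adjusted p under 0.05). With a change of at least 2-fold asked for as well, 31 members were higher and 8 lower, against 21.5% and 18.2% of all tested genes. The median log2 difference was 2.34 over the members and 0.10 over all tested genes. A median-of-ratios scaling moved that median of all genes from 0.096 to -0.010. The summed value of the 58 members was 3477 to 5253 in fibroblast libraries, 10221 to 19940 in miNSC libraries and 28545 and 36500 in the NSC libraries. Kcnj10 alone gave 9430 and 21805 of these NSC sums. Of 9 neuron markers 7 were higher and 2 lower. Their summed value was 778 to 2751 in fibroblasts, with Elavl3 and Dcx at 0, and 17013 to 34146 in miNSC, where Map2 alone gave 15161 to 32716. The 2 that fell were Stmn2, from 26 to 293 in fibroblasts to 0 to 28 in miNSC, and Tubb3, from 103 to 2586 to 44 to 766. The sum of 8 astrocyte genes, of which 6 were higher and 2 lower, was 4991 to 7275 in fibroblasts, with Aqp4 at 0, and 20389 to 50363 in miNSC. The sum of 8 oligodendrocyte lineage genes was 2766 to 6714 in fibroblasts, with Olig1 and Olig2 at 0, and 51052 to 68113 in miNSC. Of the 6 tested, 4 were higher and 2 lower. The 5 smooth muscle genes summed to 48874 to 57291 in fibroblasts and 62 to 727 in miNSC. The part of these cell types in the channel gene differences was not tested, and in bulk RNA fewer cells of a type cannot be told apart from less RNA per cell.

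**Figure D1:**
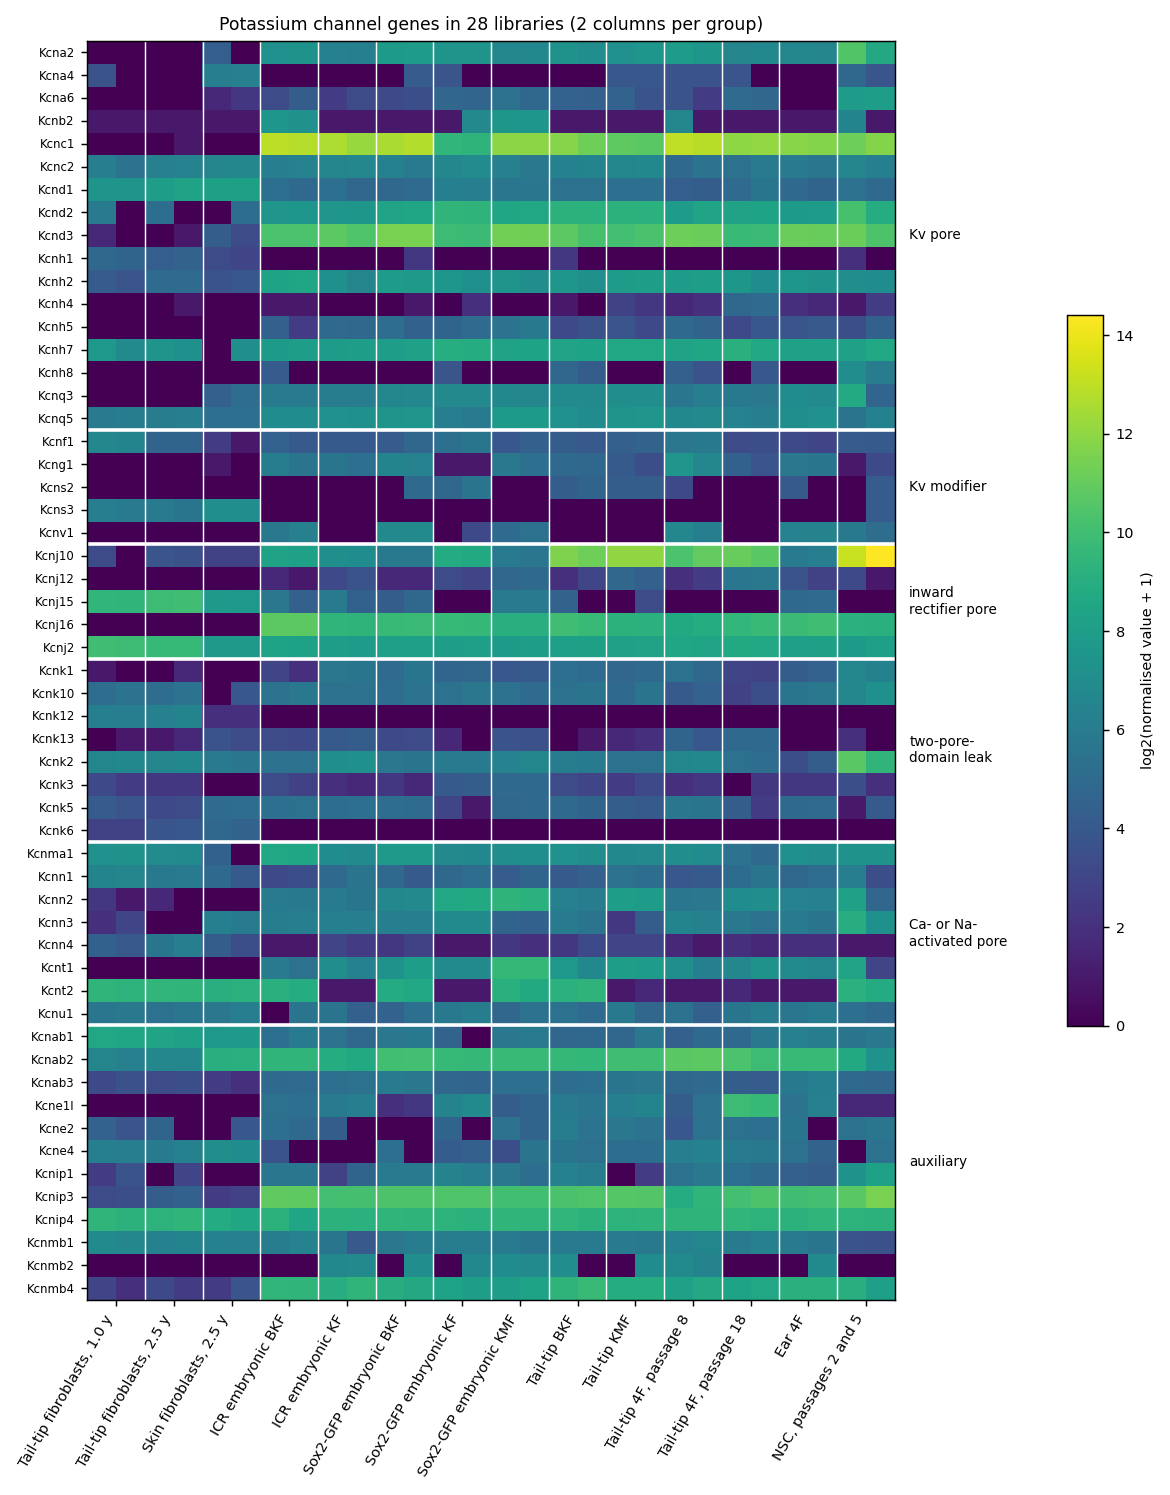
Normalised values of 55 of the 58 potassium channel genes, as log2(value + 1) in colour, with genes in rows ordered by role and the 2 libraries of each of 14 groups in neighbouring columns. The 6 fibroblast libraries at the left are dark for Kcnc1, Kcnj16 and Kcnt1, while Kcns3, Kcnk12 and Kcnk6 are dark in all 20 miNSC libraries.

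The direction was mixed inside many subfamilies, where 42.8% of all tested genes were called higher and 33.7% lower. In 8 of the 20 subfamilies at least 1 member was higher and at least 1 lower in miNSC: Kcnab, Kcnd, Kcne, Kcnj, Kcnk, Kcnmb, Kcnn and Kcnt. In 9 subfamilies members were called in the higher direction alone (Kcna, Kcnb, Kcnc, Kcng, Kcnh, Kcnip, Kcnma, Kcnq and Kcnv). In Kcns the 1 tested member was lower, and in Kcnf and Kcnu none was called. By role, 14 of 17 tested Kv pore genes were higher and 1 lower, as were 7 and 3 of 12 auxiliary genes, 4 and 2 of 7 calcium- or sodium-activated pore genes, 3 and 2 of 5 inward rectifiers, 2 and 2 of 5 leak channels, and 2 and 1 of 4 Kv modifiers.

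The promoters of 5 members that the results turn on are shown from RefSeq (GRCm38.p6), each 300 bases that run from 250 bases before to 50 bases after an annotated start, with CG dinucleotides in capitals. Kcnc1 was listed at 0 or 1 in every fibroblast library and was high in miNSC, Kcnj10 was higher in every tail-tip miNSC library than in any other miNSC library, Kcnj2 and Kcnj16 are neighbours of which the first was highest in tail-tip fibroblasts and the other at 0 in all fibroblasts, and Kcnt2 was on or off by line.
Kcnc1, + strand, chr7:46396218-46396517: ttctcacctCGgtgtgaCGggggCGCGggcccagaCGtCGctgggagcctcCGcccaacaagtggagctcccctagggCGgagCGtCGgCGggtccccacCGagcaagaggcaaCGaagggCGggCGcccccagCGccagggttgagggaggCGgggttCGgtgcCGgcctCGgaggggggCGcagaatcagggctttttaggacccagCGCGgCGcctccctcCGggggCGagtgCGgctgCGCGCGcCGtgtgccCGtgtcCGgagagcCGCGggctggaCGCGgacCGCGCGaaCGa
Kcnj10, + strand, chr1:172340960-172341259: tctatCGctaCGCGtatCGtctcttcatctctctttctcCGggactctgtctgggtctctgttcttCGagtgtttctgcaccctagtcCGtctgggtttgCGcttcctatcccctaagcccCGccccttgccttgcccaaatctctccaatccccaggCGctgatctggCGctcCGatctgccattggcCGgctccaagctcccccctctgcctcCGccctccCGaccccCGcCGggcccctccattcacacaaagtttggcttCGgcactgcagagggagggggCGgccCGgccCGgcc
Kcnj16, + strand, chr11:111019335-111019634: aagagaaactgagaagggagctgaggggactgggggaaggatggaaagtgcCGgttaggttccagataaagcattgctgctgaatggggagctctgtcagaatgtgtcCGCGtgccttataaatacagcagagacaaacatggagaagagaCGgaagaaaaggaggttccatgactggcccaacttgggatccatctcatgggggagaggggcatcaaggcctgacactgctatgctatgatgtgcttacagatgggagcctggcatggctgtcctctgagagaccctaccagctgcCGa
Kcnj2, + strand, chr11:111065914-111066213: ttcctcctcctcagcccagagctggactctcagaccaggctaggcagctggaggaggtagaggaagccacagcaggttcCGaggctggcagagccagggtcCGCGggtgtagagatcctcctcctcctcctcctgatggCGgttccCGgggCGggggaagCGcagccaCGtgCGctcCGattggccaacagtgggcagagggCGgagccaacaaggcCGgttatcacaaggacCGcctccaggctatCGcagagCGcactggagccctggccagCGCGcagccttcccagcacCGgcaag
Kcnt2, + strand, chr1:140245468-140245767: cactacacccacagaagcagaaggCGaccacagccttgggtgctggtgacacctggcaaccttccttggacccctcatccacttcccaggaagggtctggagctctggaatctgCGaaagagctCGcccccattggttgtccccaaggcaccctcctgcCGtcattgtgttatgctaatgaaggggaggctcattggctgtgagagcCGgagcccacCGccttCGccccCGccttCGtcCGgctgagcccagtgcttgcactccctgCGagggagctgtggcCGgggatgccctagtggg
The Kcnc1 promoter held 41 CG dinucleotides, and 3.46% of all 32851 RefSeq mouse promoters of the same length held at least as many. The counts were 21 in Kcnj10, 18 in Kcnj2 and 12 in Kcnt2, reached by 24.8%, 29.7% and 39.6% of all promoters. The Kcnj16 window shown, 1 of 4 annotated for that gene, was chosen because it holds TATAAA. It starts at 111019335, inside the gene, whose annotated start is 110968033. This window held 5 CG dinucleotides, and 43.6% of all promoters held at most that many. The table matched 43 of the 58 members, with 66 promoters, of median GC content 58.15% against 52.7% over all promoters. Searched on both strands, GGGGCGGGG (a GC box) stood in 10 of these 66 promoters (15.2%, against 11.4% of all), among them Kcnj10 and Kcnj2. TATAAA stood in 3 (4.55%, against 13.6% of all), those of Kcnj16, Kcnj15 and Kcnab1. The octamer ATGCAAAT stood in 1, of Kcnab2 (1.52%, against 1.74% of all), and neither the Sox-type CATTGTT (3.78% of all) nor TTCAGCACC, part of the RE1 element (0.371% of all), stood in any of these windows.

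Among Kv pore genes, Kcnc1 and Kcnd3 gave the largest fitted differences. Kcnc1, which encodes a channel that repolarises fast-spiking neurons, was listed at 0 in 5 fibroblast libraries and at 1 in the last, and at 666 to 8417 (median 3904.5) in the 20 miNSC libraries. No miNSC library came near the fibroblast values, and the log2 difference was 11.67 ± 0.12 (SE, adjusted p = 4.37e-21). With fibroblast values of 0 and 1, the size of that difference depends on the pseudocount. The lowest miNSC values of Kcnc1, 715 and 666, were those of the Sox2-GFP embryonic KF lines. Its highest, 8417, was in the tail-tip 4F line at passage 8 (8417 and 7516), and the next, 7992, in the ICR embryonic BKF lines (7992 and 7288). Kcnc2, of the same subfamily, was not called, at 44 to 100 in fibroblasts and 30 to 121 in miNSC.

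The Kcnd genes encode the pores of the A-type current, which inactivates quickly and delays firing, and they moved in opposite directions. Kcnd3 stood at 0 to 18 in fibroblasts and at 852 to 2965 (median 1563) in miNSC, a log2 difference of 8.94 ± 0.20 (adjusted p = 1.59e-16). Kcnd2 stood at 64 and 0, 36 and 0, and 0 and 36 in the fibroblast groups and at 182 to 693 in miNSC (log2 difference 5.70 ± 0.81, adjusted p = 6.34e-06). Kcnd1 went the other way, with 172 to 309 in fibroblasts and 18 to 73 in miNSC, and fell by 2.74 ± 0.09 on the log2 scale (adjusted p = 6.46e-14). In each of the 3 genes the fibroblast and miNSC values did not overlap.

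Kcna2, a delayed rectifier of axons, was at 0 in 5 fibroblast libraries and at 19 in a skin library, and at 74 to 248 in miNSC (log2 difference 6.41 ± 0.40, adjusted p = 1.65e-10). Kcnh2, of the ether-a-go-go related channels, stood at 12 to 32 and 94 to 349 (3.33 ± 0.10, adjusted p = 1.41e-14). Both genes had every miNSC library above every fibroblast library. Of the M-current genes, which damp repetitive firing, Kcnq3 stood at 0 in the tail-tip fibroblasts, 20 and 35 in the skin fibroblasts and 50 to 138 in miNSC (4.88 ± 0.36, adjusted p = 1.6e-09). Kcnq5 was called higher by 1.25 ± 0.08 (adjusted p = 4.77e-10), although its miNSC values of 59 to 233 overlapped the fibroblast values of 37 to 70.

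The Kv modifier genes encode subunits that form no channel alone but change the gating of Kv partners. Kcns3 stood at 47 to 144 in fibroblasts and was listed at 0 in all 20 miNSC libraries, and in NSC it was at 0 and 17. Kcnv1 was at 0 in all 6 fibroblast libraries and in 9 of the 20 miNSC libraries, and reached 112 in the others. Kcng1 stood at 0 or 1 in fibroblasts and at 1 to 185 in miNSC. Kcnf1 was not called, at 1 to 100 in fibroblasts and 7 to 56 in miNSC.

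Of the auxiliary genes, Kcnip3, a calcium-binding partner of the Kcnd pores, rose most of those with a computable change. It stood at 5 to 21 in fibroblasts and at 482 to 1892 (median 1292) in miNSC, with a log2 difference of 6.75 ± 0.09 (adjusted p = 1.78e-19). Kcnip4, of the same subfamily, was not called: it was 361 to 699 in fibroblasts, 352 to 716 in miNSC and 618 and 640 in NSC. Among miNSC groups its highest mean was 679 and its lowest 483, the narrowest relative range of any member. The beta subunits of the Kcna channels diverged as well. Kcnab1 fell by 3.13 ± 0.41 on the log2 scale, from 208 to 384 in fibroblasts to 0 to 76 in miNSC (adjusted p = 2.67e-06), while Kcnab2 rose by 2.37 ± 0.12, from 78 to 574 to 430 to 1770 (adjusted p = 1.86e-11).

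The calcium- or sodium-activated channels and their beta subunits were also divided. Kcnmb4, the beta subunit of the large-conductance channel in neurons, stood at 3 to 13 in fibroblasts and 264 to 826 in miNSC (log2 difference 5.99 ± 0.18, adjusted p = 9.38e-15). Kcnmb1, its smooth muscle counterpart, was 78 to 114 in fibroblasts and 15 to 98 in miNSC and fell by 0.57 ± 0.15 (adjusted p = 0.00328). The pore gene Kcnma1 was called higher, by 1.57 ± 0.38 (adjusted p = 0.00123), but overlapped, with 0 to 160 in fibroblasts and 30 to 384 in miNSC. Of the small-conductance channels Kcnn2 rose from 0 to 4 to 48 to 655 (6.14 ± 0.34, adjusted p = 4.69e-11), and Kcnn1 fell by 1.03 ± 0.27 with overlapping values (adjusted p = 0.00245). Kcnt1, a sodium-activated pore, had only values of 0 in the 6 fibroblast libraries and stood at 42 to 788 in miNSC. Exons of genes absent from the table overlapped those of Kcnmb4 over 20.8% of its length, Kcnk2 over 12.2% and Kcna6 over 39.6%, on the opposite strand in each case. The strand setting of the counting is not given in the sources used here, so reads of such pairs may be mixed.

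**Figure D2:**
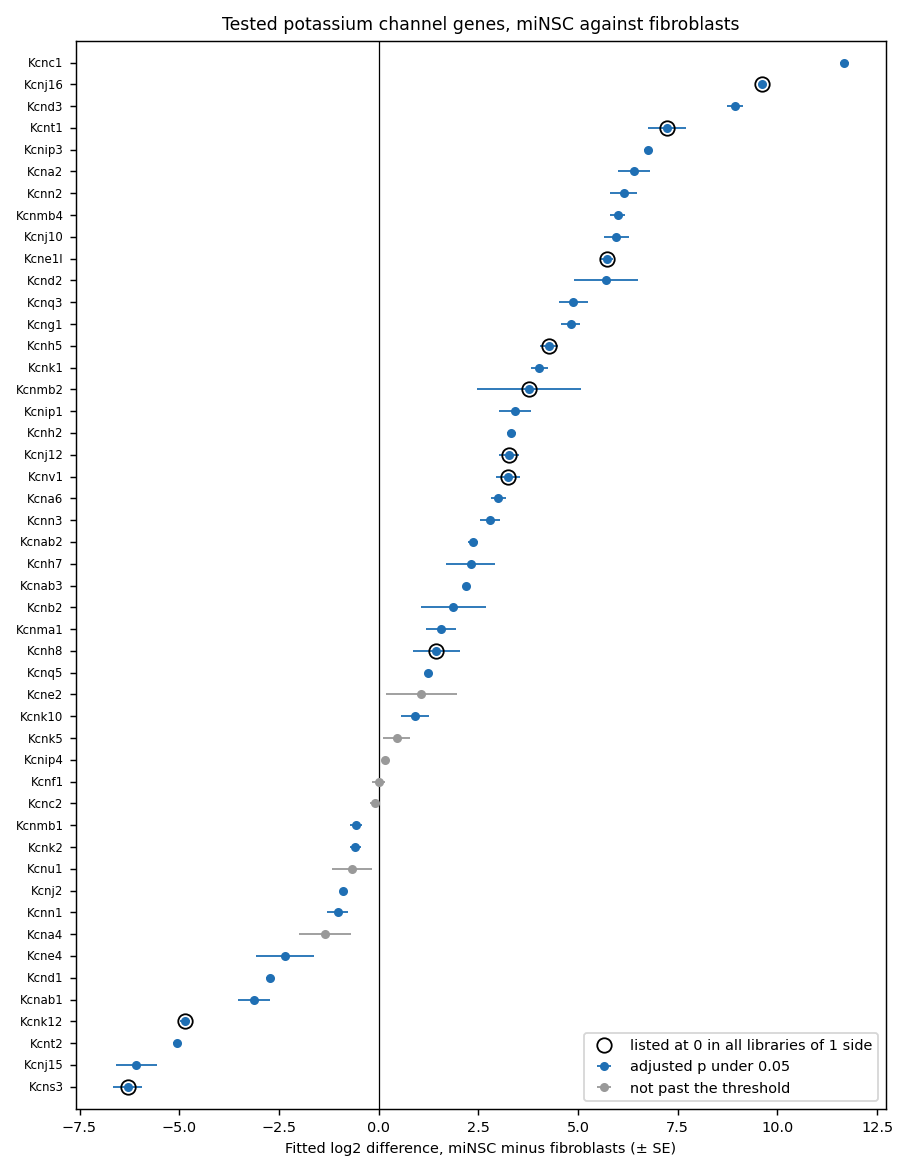
Fitted log2 differences (± SE) between the 20 miNSC and 6 fibroblast libraries for 48 of the 50 tested potassium channel genes, in order of size, with called genes in blue and others in grey. Kcnc1 leads at 11.67, a size that depends on the pseudocount because its fibroblast values are 0 or 1. Open circles mark genes listed at 0 in all libraries of 1 side, whose fitted values also depend on it and are no fold changes.

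The inward rectifiers moved in both directions, with large differences. Kcnj16, which joins Kcnj10 in mixed channels of glia, had values of 0 throughout the 6 fibroblast libraries and stood at 427 to 1786 (median 788.5) in miNSC and at 590 and 576 in NSC. Kcnj10 stood at 0 to 13 in fibroblasts and 50 to 4170 (median 369) in miNSC, a log2 difference of 5.96 ± 0.30 (adjusted p = 1.32e-11). Kcnj15 went the other way, from 206 to 1006 in fibroblasts to 0 to 58 in miNSC, and fell by 6.07 ± 0.51 (adjusted p = 9.25e-09). It was at 0 in 8 miNSC libraries and in both NSC libraries. Kcnj2, the classical inward rectifier of muscle, was 1032 and 928 in 1.0-year and 819 and 800 in 2.5-year tail-tip fibroblasts, but 214 and 217 in skin fibroblasts. Its miNSC values of 234 to 426 lay below all tail-tip and above all skin fibroblast values, and the difference called over all 3 fibroblast groups, -0.89 ± 0.04 (adjusted p = 5.42e-13), averages over them. Kcnj16 and Kcnj2 lie on the same strand of chromosome 11, 38195 bases apart.

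Among the leak channels, Kcnk12 and Kcnk6 were listed at 0 in every miNSC and NSC library. In fibroblasts Kcnk12 was 70 to 88 in the tail-tip and 3 in both skin libraries, and Kcnk6 was 6 to 28. Kcnk1, a weak inward-rectifying leak channel, rose from 0 to 2 in fibroblasts to 3 to 52 in miNSC (log2 difference 4.03 ± 0.20, adjusted p = 1.11e-11). The mechanosensitive Kcnk2 was called lower by 0.58 ± 0.14 (adjusted p = 0.0013), with overlapping values of 49 to 105 in fibroblasts and 10 to 151 in miNSC.

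Set against fibroblasts of the same labelled tissue, age and reporter line, the tail-tip miNSC gave 26 members higher and 10 lower. Of all tested genes 36.7% and 29.4% were called. Whether the lines came from these very fibroblasts is not stated. Kcnd3 rose from 2 and 0 in the 1.0-year tail-tip fibroblasts to 852 to 2416 in the 8 tail-tip miNSC libraries (log2 difference 9.62 ± 0.34, adjusted p = 1.87e-13). Kcnj10 rose from 9 and 0 to 1286 to 4170 (9.59 ± 0.52, adjusted p = 6e-11). Kcnc1, Kcna2, Kcnq3 and Kcnj16 were each listed at 0 in both of these fibroblast libraries, and Kcnc1 stood at 1724 to 8417 in the miNSC. Kcnj2 fell by 1.54 ± 0.06 without overlap, from 1032 and 928 to 281 to 426 (adjusted p = 1.13e-12). Kcnd2 rested on 1 fibroblast library: its log2 difference of 5.73 ± 1.37 (adjusted p = 0.00146) became 2.72 (adjusted p = 0.134) without the second, which was at 0.

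**Figure D3:**
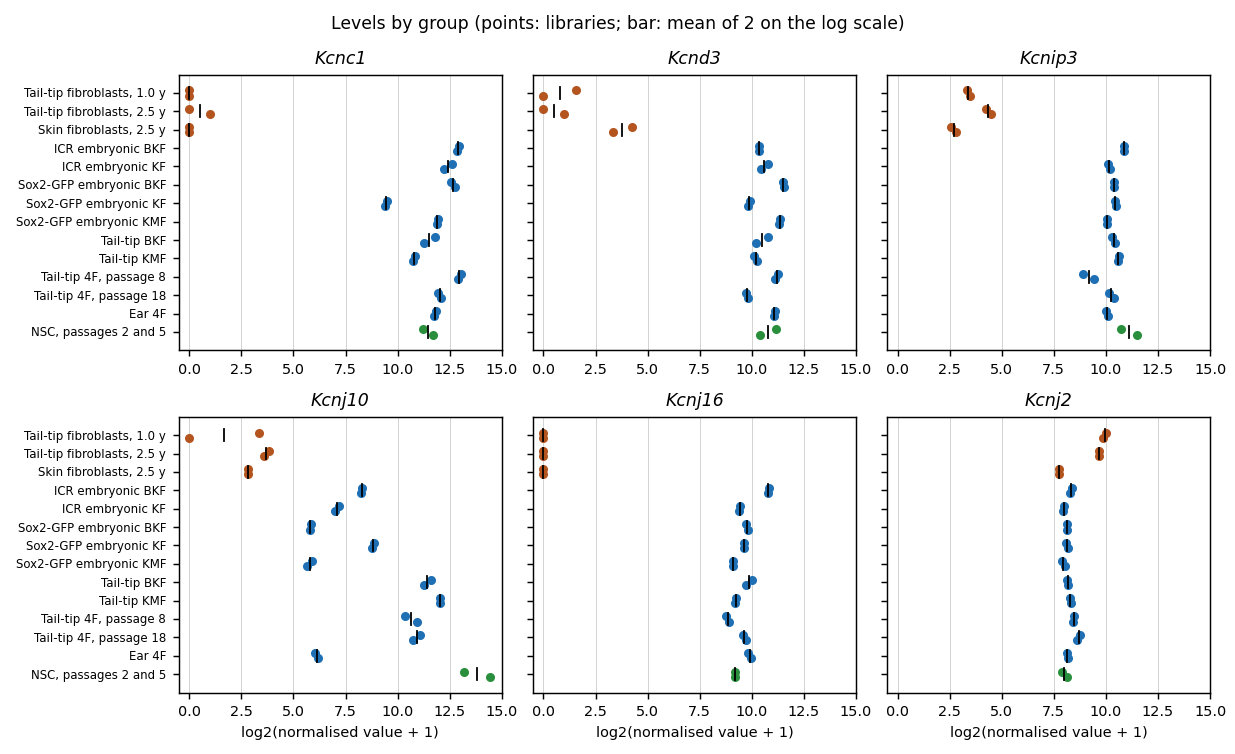
Values of 6 potassium channel genes on the log2(value + 1) scale, with a point for each library (fibroblasts brown, miNSC blue, NSC green) and a bar at the mean of the 2 libraries of each of 14 groups. Kcnc1, Kcnd3, Kcnip3 and Kcnj16 sit low in all fibroblasts and high elsewhere, Kcnj10 is highest in NSC and in the tail-tip lines, and Kcnj2 is high in the 4 tail-tip fibroblast libraries.

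In NSC against the 2.5-year fibroblasts, 30 members were higher and 9 lower, where 34.4% and 31.2% of all tested genes were called. The comparison shares its 4 fibroblast libraries with the one above of miNSC against fibroblasts. Kcnj10 stood at 9430 at passage 2 and 21805 at passage 5, against 6 to 13 in these fibroblasts (log2 difference 10.56 ± 0.57, adjusted p = 6.21e-11). Kcnc1 stood at 2360 and 3366 against 0 to 1 (11.21 ± 0.21, adjusted p = 9.97e-17), and Kcnip3 at 1678 and 2876 against 5 to 21 (7.58 ± 0.16, adjusted p = 4.77e-16). Both passages lay far above the fibroblasts for all 3 genes. Kcne4, a single-span auxiliary subunit, was called lower (difference -3.90 ± 1.35, adjusted p = 0.0182), but without the passage 2 library, which was at 0, the value was -1.23 (adjusted p = 0.484). Kcnab1 likewise missed the threshold without that library (-2.25, adjusted p = 0.0662).

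miNSC and NSC differed in 26 members, of which 11 were higher and 15 lower in miNSC, where 20.9% and 19.7% of all tested genes were called. With at least 2-fold asked for, 8 were higher and 14 lower, against 6.57% and 6.69% of all. Kcnj10 was lower in every miNSC library than in either NSC library, by 5.12 ± 0.49 on the log2 scale (adjusted p = 5.31e-07). Kcnk2 stood at 1683 and 676 in NSC and at 10 to 151 in miNSC (difference -4.27 ± 0.22, adjusted p = 5.01e-10). Kcna6, a delayed rectifier pore, stood at 245 and 255 in NSC and at 0 to 40 in miNSC (-4.32 ± 0.30, adjusted p = 1.3e-08). Neither gene overlapped between the cell types. Kcnn3 (510 and 152 in NSC, 4 to 117 in miNSC) and Kcnip1 (167 and 298, 0 to 86) were lower in miNSC as well, with differences of -2.46 ± 0.39 (adjusted p = 0.000111) and -2.84 ± 0.63 (adjusted p = 0.00186). Kcne1l, an auxiliary subunit gene on the X chromosome, was 2 in both NSC libraries and 3 to 944 in miNSC, a rise of 4.14 ± 0.24 (adjusted p = 1.35e-09).

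Beside these, 8 astrocyte markers summed to 50018 and 73975 in NSC and to 20389 to 50363 in miNSC. The 9 neuron markers summed to 38454 and 95599 against 17013 to 34146. Of the 8 astrocyte genes 2 were higher and 5 lower in miNSC, and of the 9 neuron genes 6 were lower. Of 9 neural stem genes 1 was higher and 4 lower, and of 6 tested oligodendrocyte lineage genes 1 was higher and 4 lower. The part of these cell types in the differences of Kcnj10, Kcnk2 and the other members was not tested. The NSC were of 2.5 years and the miNSC of embryonic or 1.0-year origin, so age and cell type cannot be told apart. The NSC side rested on 2 libraries that stood apart from each other. Kcna2 was 1421 at passage 2 and 414 at passage 5, and its difference of -2.46 ± 0.63 (adjusted p = 0.00543) became -1.57 (adjusted p = 0.182) without passage 2. Kcnk10 lost its call without either NSC library, from -1.82 ± 0.56 (adjusted p = 0.0167) to an adjusted p of 0.0552 without passage 2 and 0.131 without passage 5.

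Among the 10 miNSC groups, 35 of 50 members differed by an F test over groups, against 68.2% of all tested genes. The pattern of Kcnt2, which encodes a sodium-activated pore, was all or none. It was 388 to 718 in 16 libraries and 1 or 2 in the other 12, with no value between. The high libraries were all 6 of fibroblasts, both of NSC, and those of the ICR embryonic BKF (558 and 488), Sox2-GFP embryonic BKF (475 and 388), Sox2-GFP embryonic KMF (562 and 429) and tail-tip BKF lines (600 and 664). The low ones were those of both embryonic KF groups, tail-tip KMF, tail-tip 4F at both passages and ear 4F. Both libraries of each of the 14 groups were on the same side. KMF miNSC were high when made from embryonic and low when made from tail-tip fibroblasts, so the factor set alone did not sort the lines. Over all miNSC the fitted fall against fibroblasts, 5.06 ± 0.10 (adjusted p = 2.28e-17), is the mean of these unlike groups.

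**Figure D4:**
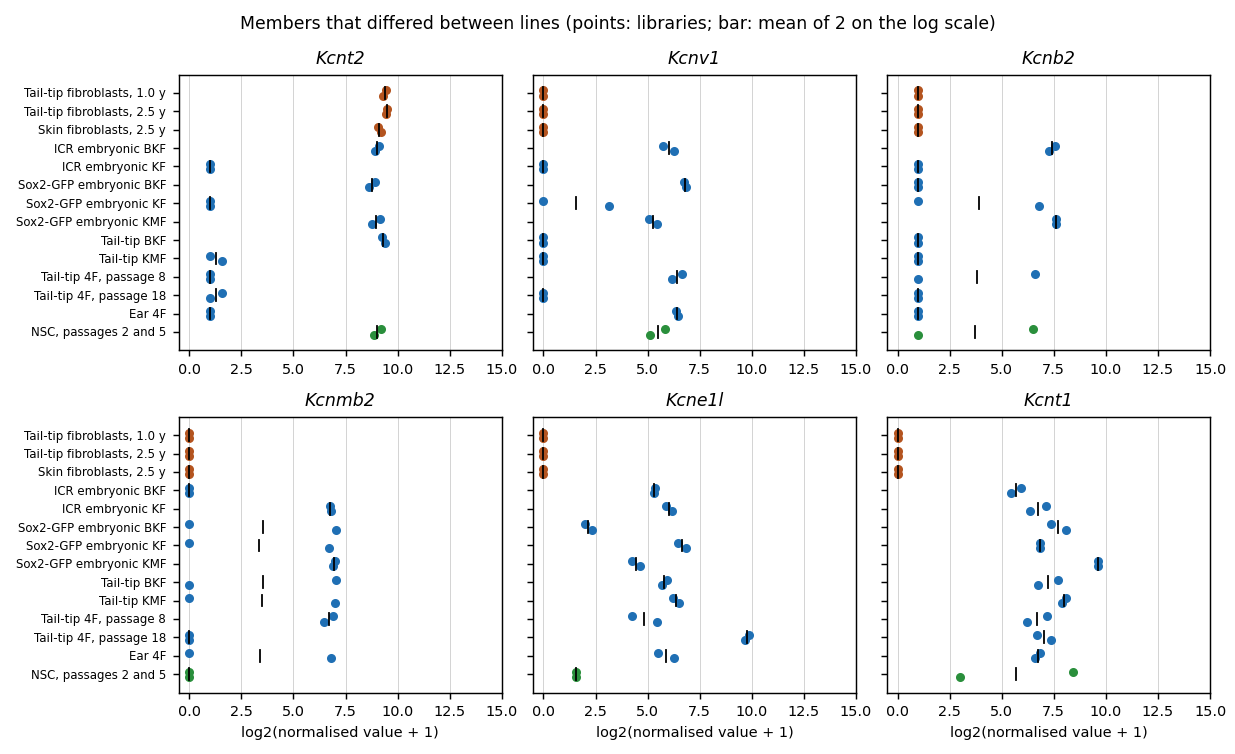
Values of 6 potassium channel genes on the log2(value + 1) scale in 14 groups, with a point per library and a bar at the mean of 2. Kcnt2 falls into a high set (388 to 718) and a low set (1 or 2) with both libraries of a group together, whereas Kcnb2 and Kcnmb2 separate the 2 libraries of several groups, and Kcne1l is highest in the tail-tip 4F line at passage 18.

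Kcnj10 ordered the miNSC groups by another axis. It stood at 56 and 54 in Sox2-GFP embryonic BKF, 58 and 50 in embryonic KMF, 64 and 72 in ear 4F, 144 and 128 in ICR KF, 310 and 305 in ICR BKF and 464 and 428 in Sox2-GFP embryonic KF. The tail-tip lines stood above all of these, with 1286 and 1966 in 4F at passage 8, 2140 and 1716 at passage 18, 3111 and 2433 in BKF and 4127 and 4170 in KMF. The embryonic BKF and KMF values overlapped, as did those of the 4F line at both passages. Every tail-tip library was thus above every embryonic and ear library, and below both NSC libraries. Astrocyte marker sums ordered the groups otherwise, with 46908 to 50363 in Sox2-GFP embryonic KF and 20389 to 22452 in tail-tip 4F at passage 8.

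The comparison of tail-tip with Sox2-GFP embryonic miNSC over the shared BKF and KMF sets called 3 members higher and 9 lower in the tail-tip lines, where 15.8% and 17.2% of all tested genes were called. The share called higher was thus below that of all genes. Donor age, tissue of origin and line go together in this contrast and cannot be told apart. Kcnj10 was higher by 5.93 ± 0.46 on the log2 scale (adjusted p = 1.19e-07). Kcnc1 stood at 3504 and 2432 in tail-tip BKF and 1847 and 1724 in KMF, against 6031 and 6986 and 3857 and 3820 in the embryonic lines, and was lower by 1.13 ± 0.17 (adjusted p = 0.000112). Kcnd3 was lower by 1.08 ± 0.30 (adjusted p = 0.0106), with 1099 to 1758 against 2547 to 2965. Kcnv1 was 108 and 112 in embryonic BKF and 32 and 43 in embryonic KMF, and at 0 in all 4 tail-tip libraries. Oligodendrocyte lineage marker sums were 64296 to 68113 in these tail-tip and 53628 to 62600 in these embryonic libraries. Of 6 tested genes of that list 3 were higher and 1 lower. Of 9 neural stem markers 5 were higher and 1 lower, with overlapping sums of 45258 to 106231 and 55656 to 112586. Astrocyte marker sums overlapped too, at 25064 to 33087 and 27791 to 31898, with 1 of 8 genes higher and 2 lower. Outside this contrast, oligodendrocyte lineage sums were 51052 to 56556 in tail-tip 4F at passage 8, where Kcnj10 was 1286 and 1966. In ear 4F they were 62180 to 62274, with Kcnj10 at 64 and 72. The part of these cell types in the differences was not tested.

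Ear and tail-tip 4F lines of the same age differed in 15 members, 7 higher and 8 lower in the ear line, where 14.1% and 14.5% of all tested genes were called. Kcnj10 was lower in the ear line, at 64 and 72 against 1286 to 2140 over both tail-tip passages (difference -4.66 ± 0.57, adjusted p = 1.49e-05). Kcnk2 was lower too, at 10 and 18 against 34 to 103 (-2.10 ± 0.26, adjusted p = 1.89e-05). Neither gene overlapped. Kcnj16 was higher, at 916 and 1002 against 427 to 846 (0.67 ± 0.07, adjusted p = 6.72e-06), and Kcnj2 lower, at 278 and 288 against 344 to 426 (-0.42 ± 0.07, adjusted p = 0.000207). Kcnq5 was higher by 0.73 ± 0.15 (146 and 154 against 72 to 109, adjusted p = 0.00227). Kcnab2 (-0.73 ± 0.23, adjusted p = 0.0259) and Kcnc1 (-0.70 ± 0.21, adjusted p = 0.0214) were called lower, but missed the threshold without either ear library (adjusted p = 0.0926 to 0.135) and without some tail-tip libraries. Oligodendrocyte lineage marker sums were 62180 to 62274 in the ear and 51052 to 59715 in the tail-tip libraries, with 1 of 6 tested genes higher and 2 lower, and 5 of 9 neural stem genes were lower. Their part in these differences was not tested. With 1 group of lines of each origin, origin and line cannot be told apart.

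BKF and KF lines from embryonic fibroblasts were compared in both strains. In ICR lines 10 members were higher and 4 lower in BKF than in KF, where 6.69% and 6.42% of all tested genes were called. This count rested on single libraries: it was 8 of both directions together without the second BKF library and 6 without the second KF library. Kcnt2 went from 1 in both KF libraries to 558 and 488 (log2 difference 8.03 ± 0.21, adjusted p = 7.34e-14). Kcnj16 rose from 699 and 666 to 1786 and 1736 (1.37 ± 0.09, adjusted p = 1.44e-08) and Kcnh2 from 149 and 94 to 326 and 349 (1.5 ± 0.22, adjusted p = 0.000174). Kcnk2 fell from 142 and 151 to 40 and 42 (-1.81 ± 0.30, adjusted p = 0.000529). Leaving out any of the 4 libraries ended none of these calls. Kcnv1 was at 0 in both KF libraries and at 53 and 76 in BKF, and was called higher. Kcnmb2 was at 106 and 109 in KF and at 0 in BKF but was not called (adjusted p = 0.143), and it separated the 2 libraries of 5 other miNSC groups. Kcnb2, a delayed rectifier pore, went from 1 and 1 to 186 and 154 (6.41 ± 1.76, adjusted p = 0.0228), but leaving out any library gave adjusted p = 0.0967 to 0.114. Kcnip3 (1112 and 1166 to 1892 and 1854) and Kcnj2 (255 and 247 to 326 and 308) were called higher by 0.72 ± 0.19 and 0.34 ± 0.08, with adjusted p = 0.0184 and 0.00763. The call of Kcnip3 was lost without any 1 of the 4 libraries (adjusted p = 0.0677 to 0.101), and that of Kcnj2 without the first BKF library (adjusted p = 0.0853) or the second KF library (adjusted p = 0.062). Astrocyte marker sums were 34626 to 36140 in KF and 43180 to 46716 in BKF, with 1 of 8 genes higher and 1 lower, and their part in these changes was not tested.

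In Sox2-GFP embryonic lines 10 members were higher and 7 lower in BKF than in KF, where 19.2% and 18.5% of all tested genes were called. Kcnt2 rose from 1 in both KF libraries to 475 and 388 (log2 difference 7.75 ± 0.21, adjusted p = 5.07e-13). Kcnc1 rose from 715 and 666 to 6031 and 6986 (3.23 ± 0.25, adjusted p = 9.36e-08), and Kcnd3 from 950 and 892 to 2876 and 2965 (1.66 ± 0.42, adjusted p = 0.00544). Both pores of neuronal Kv channels thus had separate values in the BKF and KF lines. Kcne1l fell from 86 and 114 to 3 and 4 (-4.48 ± 0.32, adjusted p = 4.69e-08), and Kcnj10 from 464 and 428 to 56 and 54 (-3.0 ± 0.66, adjusted p = 0.00187). Kcnv1 was 0 and 8 in KF and 108 and 112 in BKF (5.21 ± 0.63, adjusted p = 9.2e-06). Kcnn2 was called lower, from 406 and 426 to 100 and 110 (-1.98 ± 0.74, adjusted p = 0.0465), and missed the threshold without any 1 of the 4 libraries (adjusted p = 0.122 to 0.149). Astrocyte marker sums were 46908 and 50363 in KF and 27791 to 31898 in BKF, with 7 of 8 genes lower, and moved with Kcnj10. Neural stem sums went from 55912 and 56607 to 112498 and 112586, with 3 of 9 genes higher and 3 lower. The part of these cell types was not tested.

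The BKF minus KF difference was unlike between the strains in 19 members. It was larger in Sox2-GFP lines for 9 and smaller for 10, where 16.4% and 15.8% of all tested genes were called. For Kcnc1 this difference was larger by 2.75 ± 0.35 in Sox2-GFP lines (adjusted p = 1.96e-05). The ICR values were 6318 and 4710 in KF and 7992 and 7288 in BKF. For Kcnj10 the signs were opposite, with 144 and 128 in ICR KF and 310 and 305 in ICR BKF, and the difference was -4.17 ± 0.93 (adjusted p = 0.0026). For Kcnq5 it was 1.71 ± 0.25 (adjusted p = 8.64e-05), from 70 and 59 to 177 and 184 in Sox2-GFP and from 154 and 148 to 128 and 128 in ICR lines. For Kcnt2 no difference between strains was called. Neither strain nor factor set can be told apart from line with 1 group of lines per strain and factor set.

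**Figure D5:**
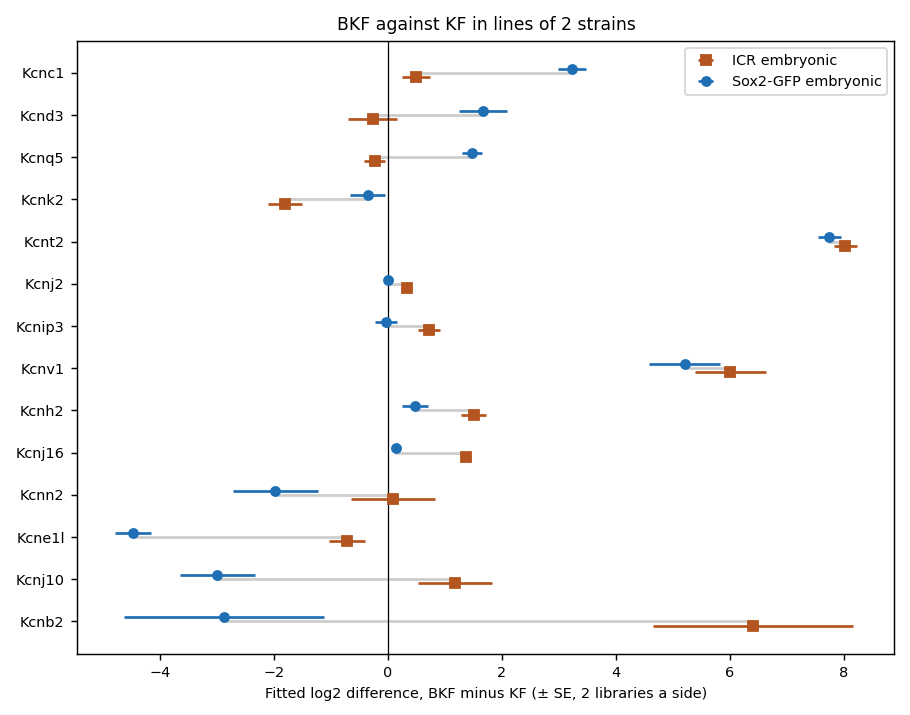
Fitted log2 differences between BKF and KF embryonic lines (± SE, 2 libraries a side) for 14 potassium channel genes, with ICR lines as brown squares and Sox2-GFP lines as blue circles. Kcnt2 and Kcnv1 lie far to the right in both strains, whereas Kcnc1 rose by 3.23 in Sox2-GFP lines alone among called changes and Kcnj10 fell by 3.0 there.

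KMF lines against KF lines of Sox2-GFP embryonic origin had 12 members higher and 6 lower, where 19.9% and 19.2% of all tested genes were called. The KF libraries are the same as in the BKF comparison. Factor set and line cannot be told apart here, with 1 group of lines of each. Kcnt2 rose from 1 in both to 562 and 429 (log2 difference 7.94 ± 0.21, adjusted p = 4.63e-13), Kcnc1 to 3857 and 3820 (2.47 ± 0.25, adjusted p = 1.14e-06) and Kcnq5 from 70 and 59 to 233 and 228 (1.83 ± 0.18, adjusted p = 9.54e-07). Kcnj10 fell to 58 and 50 (-3.02 ± 0.66, adjusted p = 0.00163) and Kcnn3 from 114 and 117 to 24 and 21 (-2.31 ± 0.53, adjusted p = 0.00231). The KMF values of each of these genes lay clear of the KF values. Kcne1l fell from 86 and 114 to 18 and 24 (-2.20 ± 0.32, adjusted p = 4.96e-05), and Kcnj16 from 798 and 779 to 547 and 552 (-0.52 ± 0.09, adjusted p = 0.000174). Kcnd3 was higher, at 2601 and 2547 (1.48 ± 0.42, adjusted p = 0.0107), and Kcnc2 lower, from 99 and 121 to 78 and 54 (-0.74 ± 0.25, adjusted p = 0.0265), but both missed the threshold without the second KF library (adjusted p = 0.0564 and 0.167), and also Kcnd3 without the first and Kcnc2 without the second KMF library (adjusted p = 0.0519 and 0.247). Kcnt1 was highest of all groups in KMF, at 776 and 788 against 115 and 112 in KF (2.77 ± 1.03, adjusted p = 0.0436), and missed the threshold without any 1 of the 4 libraries (adjusted p = 0.127 to 0.132). Astrocyte marker sums moved with Kcnj10 here too, from 46908 and 50363 in KF to 30165 to 31798 in KMF, with 5 of 8 genes lower and 1 higher, and neuron marker sums went from 29948 and 29962 to 22967 to 25641. Their part in these changes was not tested.

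With passage of the tail-tip 4F line, 7 members were higher and 11 lower at passage 18 than at passage 8, where 17.5% and 17.6% of all tested genes were called. Kcne1l went from 18 and 42 to 944 and 814, its highest values of any group (log2 difference 4.94 ± 0.32, adjusted p = 3.12e-08). Kcnip3 rose from 482 and 686 to 1122 and 1326 (1.08 ± 0.19, adjusted p = 0.000366), and Kcnj16 from 427 and 486 to 756 and 846 (0.81 ± 0.09, adjusted p = 4.28e-06). Passage 8 held the lowest Kcnip3 and Kcnj16 values of any miNSC group. Kcng1 fell from 185 and 100 to 21 and 13 (-2.96 ± 0.52, adjusted p = 0.000404), Kcnk2 from 98 and 103 to 40 and 34 (-1.42 ± 0.30, adjusted p = 0.0017), and Kcnv1 from 99 and 70 to 0 in both. Kcnc1 fell from 8417 and 7516 to 3952 and 4355 (-0.94 ± 0.25, adjusted p = 0.00733), a call that missed the threshold without the first passage 8 library (-0.86, adjusted p = 0.0568). Kcnd3 fell from 2416 and 2250 to 852 and 896 (-1.42 ± 0.42, adjusted p = 0.016), and without any 1 of the 4 libraries the adjusted p was 0.0526 to 0.0786. The call of Kcnh2 (-0.64 ± 0.22, adjusted p = 0.0339) was lost without either passage 8 library (adjusted p = 0.0925 and 0.127), and without the second passage 18 library the value was -0.33 (adjusted p = 0.384). That of Kcnj2 (0.23 ± 0.08, adjusted p = 0.0299) was lost without either passage 8 library (adjusted p = 0.0693 and 0.131), without the first passage 18 library (adjusted p = 0.178) and with median-of-ratios scaling (adjusted p = 0.0651). Neural stem marker sums were 69082 to 76579 at passage 8 and 42283 to 43546 at passage 18, although 4 of the 9 genes were higher and 2 lower. Astrocyte marker sums went from 20389 to 22452 to 27885 to 32875, with 5 of 8 genes higher and 1 lower. Kcnj16 rose with them, while the Kcnj10 values overlapped, at 1286 and 1966 at passage 8 and 2140 and 1716 at passage 18. Of 6 tested oligodendrocyte lineage genes 4 were higher, with overlapping sums. The part of these cell types in the changes was not tested.

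Between tail-tip fibroblasts of different age few members were called, with 3 higher and 4 lower at 2.5 than at 1.0 years, where 5.63% and 5.41% of all tested genes were called. The count of 7 dropped to 3 without the second 1.0-year library. Kcnd1 was 176 and 172 at 1.0 years and 264 and 309 at 2.5 years (log2 difference 0.71 ± 0.20, adjusted p = 0.0329), and Kcnj2 was 1032 and 928 against 819 and 800 (-0.27 ± 0.08, adjusted p = 0.0322). Both genes lost their call when libraries were left out, Kcnd1 without any 1 of the 4 (adjusted p = 0.0631 to 0.228) and Kcnj2 without the first 1.0-year or either 2.5-year library (adjusted p = 0.091 to 0.279).

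Other ion transport genes were set beside the members for miNSC against fibroblasts, as lists chosen for this purpose. Of all tested genes, 42.8% were called higher and 33.7% lower. Of 30 tested genes that handle potassium in other ways, 13 were higher and 11 lower, with a median log2 difference of 0.16. The 13 higher genes included Atp1b2 (7.42 ± 0.08, adjusted p = 9.2e-21), a subunit of the glial sodium-potassium pump. Slc12a2 (2.72 ± 0.06, adjusted p = 3.9e-16), a sodium-potassium-chloride cotransporter, was another. Of 9 tested voltage-gated sodium channel genes 5 were higher and 1 lower (median 1.12), and of 17 calcium channel genes 12 were higher and 4 lower (median 2.0).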

How the data were processed

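Messenger RNA of 28 libraries had been enriched with oligo(dT) beads and sequenced on Illumina instruments, per the labels' protocols. The values deposited by the authors were whole-number scores, 1 per gene and library, called normalised expression there. The submitters' processing notes list RSEM, Bowtie2 2.0 and the build mm10, with no role or order. How the scores were normalised is not given in the sources used here. In each library 10 genes shared the highest value, 92914. Depth is unknown, so no counting error could be given, and levels were not compared between genes.

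Values were taken as log2(value + 1) with no further normalisation. Fold changes are on that scale, which understates the change of low genes. Where 1 side held values of at most 2, as Kcnc1 in fibroblasts and Kcnt2 in some lines, the size depends on the pseudocount. The 16275 genes with a mean of at least 10 were fitted with limma 3.58.1 (R 4.3.3), with 1 term per group and a trend of variance on the mean, and p-values were adjusted over all of them by Benjamini-Hochberg (threshold 0.05). Contrasts weighed groups equally. A gene at 0 in all libraries of 1 side is given by its values with no fold change. Tables were joined and drawn with Python 3.11.15, and the pipeline was tested on simulated data.

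The genes described were, per comparison, up to 8 rises and 8 falls past the threshold without overlap and with a group mean of at least 100, members at 0 on 1 side, and members described by their levels. Overlap was not applied to the strain comparison. Some of these genes are not reported here, though counts include them. The members and lists were chosen with earlier results of these data known. Alternatives were a pseudocount of 10, no filter, a robust variance prior, median-of-ratios scaling, a replicate block, group means as single samples and leaving out each library. Leaving out members that split within a group was added after seeing the data. Coordinates are from GENCODE M21 (GRCm38), and promoters from RefSeq.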

Additional observations from a re-analysis of the deposited data

Results flagged for a closer look

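The BKF minus KF difference was unlike in Sox2-GFP and ICR embryonic lines, by a test of the contrast itself, for 11 members that the rule names. Of the 50 tested members 9 were called higher and 10 lower in this contrast, where 16.4% and 15.8% of all tested genes were called. The values are log2 differences, Sox2-GFP minus ICR. The BKF minus KF difference was larger in Sox2-GFP lines for Kcnc1 (2.75), Kcnd3 (1.94), Kcnq5 (1.71) and Kcnk2 (1.45). It was smaller for Kcnb2 (-9.30), Kcnj10 (-4.17), Kcne1l (-3.77), Kcnj16 (-1.23), Kcnh2 (-1.03), Kcnip3 (-0.76) and Kcnj2 (-0.33). The calls of Kcnc1, Kcnq5, Kcnj10, Kcne1l and Kcnj16 held without any 1 of the 8 libraries. Those of Kcnd3, Kcnk2, Kcnh2, Kcnip3 and Kcnj2 missed the threshold without at least 1 library, with adjusted p = 0.0512 to 0.107. Kcnb2 was 1 and 108 in the Sox2-GFP KF libraries, and without the second its value was -6.41 (adjusted p = 0.0553).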

How the results depend on the processing

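No member named in a comparison reversed its direction under any alternative run. Of 104 named member results, 75 stayed past the threshold in all alternatives run for them and 29 missed it in at least 1, of which all did so when a library was left out; Kcnj2 at passage 18 against 8 also did so under median-of-ratios scaling (0.19, adjusted p = 0.0651). Counts of members called stayed within 1.5 times under a pseudocount of 10, no filter, the robust prior, the scaling, group means as single samples and without members that split within a group. Leaving out 1 library moved 2 counts beyond that: BKF against KF in ICR lines, 14, ranged from 6 to 11, and age, 7, ranged from 3 to 5. A group left with 1 library was assumed to vary like the others, and fewer libraries entered these fits. With the replicate block, tail-tip against embryonic miNSC gave 19 calls (5 higher, 14 lower) in place of 12. Replicate numbers did not pair the samples: over 78 pairs of groups the correlation of deviations was -0.055 to 0.071. NSC libraries were left out of the blocked fit because their numbers name passages, so NSC comparisons have no blocked value.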

Other observations

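The 2 NSC libraries, at passages 2 and 5, differed more in potassium channel genes than the libraries of any other group did. Of the 50 tested members, 13 were over 2-fold higher at passage 2 and 5 at passage 5, where 9.18% and 10.1% of all tested genes were. The median absolute log2 difference between the 2 libraries was 0.772 over the members and 0.373 over all tested genes, and 0.099 to 0.272 over the members in the other 13 groups. Kcnq3, an M-current pore, was 455 at passage 2 and 25 at passage 5. Kcnt1, a sodium-activated pore, was 336 and 7. Kcnn2 was 308 and 26, and Kcnk2 1683 and 676. All 4 genes were higher at passage 2. Kcnj10 and Kcnip3 were higher at passage 5, at 21805 against 9430 and 2876 against 1678. Neuron markers summed to 95599 at passage 2 and 38454 at passage 5, astrocyte markers to 73975 and 50018, and neural stem markers to 43665 and 110194. With 1 library per passage there is no test.

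Some members split the 2 libraries of a group into a value of at most 2 and one of at least 50. This was seen for 4 of the 50 tested members, Kcnb2, Kcnd2, Kcnh7 and Kcnmb2 (8.0%), against 6.87% of all tested genes. Kcnmb2, a beta subunit of the large-conductance channel, was 0 and 132 in Sox2-GFP embryonic BKF, 0 and 104 in embryonic KF, 132 and 0 in tail-tip BKF, 0 and 126 in tail-tip KMF and 0 and 112 in ear 4F. Kcnb2 was 1 and 108 in Sox2-GFP embryonic KF, 96 and 1 in tail-tip 4F at passage 8, and 88 and 1 in NSC.

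Some members stood apart between tail-tip and skin fibroblasts, a contrast that was not tested. These examples were picked from the values themselves, and the share of all genes that stood apart was not counted. The tail-tip libraries were of 1.0 and 2.5 years and the skin libraries of 2.5 years. Kcnab2 was 78 to 102 in the 4 tail-tip libraries and 547 and 574 in skin. Kcnk12 was 70 to 88 and 3 in both, Kcna4 0 to 12 and 72 and 76, Kcnj15 698 to 1006 and 212 and 206, and Kcnma1 114 to 160 and 21 and 0. None of these values overlapped.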
